A study of Mus musculus with 11 samples.

Results

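The genes described here bring fatty acids into the cell and prepare them for use. They were taken by name, as the rows of the deposited table for *Lpl*, *Cd36*, *Slc27a1*, *Slc27a4*, *Fabp1*, *Fabp4*, *Fabp5*, *Acsl1*, *Acsl4* and *Acsl5*, and each name had 1 row, so they are 10 of the 12932 genes of the table. The table comes from bulk RNA-seq of alveolar macrophages (AMs), the resident macrophages of the air spaces, which were sorted from the lungs of 9-week-old mice. Control mature AMs (mAM_WT, 4 libraries) came from CD11cCre- Rxrabfl/fl mice, which carry floxed alleles of *Rxra* and *Rxrb* but no Cre. RXR-deficient mature AMs (mAM_KO, 4 libraries) and immature AMs (Imm_KO, called ImmAMs, 3 libraries) came from CD11cCre+ Rxrabfl/fl mice, in which both genes are deleted where the CD11c promoter drives Cre.

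That promoter is also active in dendritic cells and in other macrophages of the lung, so the AMs were not the only cells of these mice open to recombination. The study sorted mature AMs as CD11b-negative and SiglecF-positive and ImmAMs as positive for both. No control ImmAMs are among the libraries, and ImmAMs therefore differ from control mAMs both in genotype and in sort gate, which cannot be told apart. ImmAMs and RXR-deficient mAMs share the genotype and differ in the gate. The study used littermates as controls and mice of both sexes, the labels give no sex, and each library is described as an individual biological replicate. The study's sources give both lung digestion and bronchoalveolar lavage as the origin of the cells. They include mAM_KO replicate 4 in the table but not among the 3 mice compared, so means and tests below leave it out unless it is named.

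Fatty acids reach an AM from the surfactant it clears and from lipoproteins. Lipoprotein lipase (*Lpl*) is secreted and frees fatty acids from triglycerides, the scavenger receptor CD36 and the transport proteins of the SLC27 family take them up at the membrane, the fatty acid binding proteins (FABPs) carry them through the cytosol, and the long-chain acyl-CoA synthetases (ACSLs) attach coenzyme A, without which a fatty acid can be neither stored nor oxidized. RXRs bind DNA as partners of other nuclear receptors, among them the PPARs, which are themselves activated by fatty acids and are known to act on several of these genes, and the LXRs, which respond to oxidized forms of cholesterol.

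Between 16659960 and 37873532 reads per library fell on the genes of the table. The deleted genes were checked first. *Rxra* stood at 344 ± 29.0 CPM (reads of a gene scaled to the size of the library, SD, n = 4) in control mAMs, 344 ± 9.12 CPM (SD, n = 3) in RXR-deficient mAMs and 291 ± 12.2 CPM (SD, n = 3) in ImmAMs, and *Rxrb* at 59.8 ± 9.29, 46.1 ± 6.79 and 33.5 ± 1.64 CPM. Neither gene passed the limma test in RXR-deficient mAMs (p-adj = 0.993 and 0.0972), although DESeq2 called *Rxrb* lower. These values per gene therefore do not show the deletion there. Reads were given per gene, so loss of only the floxed part of a gene was not tested. The study measured the mRNA of both genes by qPCR and reports that deletion was efficient in mature AMs and in ImmAMs. Of the 10 alveolar macrophage markers, *Itgax*, *Chil3* and *Mrc1* were high in every group, with ImmAM means of 1425, 21175 and 1488 CPM, and the other 7 were far lower in ImmAMs than in control mAMs. Among these *Siglecf*, the gene of the sort marker, was at 19.6 against 257 CPM, *Marco* at 12.6 against 342 and *Ear1* at 15.1 against 943. *Ear2* was at 80.0 against 2140.2, *Cidec* at 8.95 against 388, *Car4* at 106 against 331 and *Krt79* at 6.54 against 671 CPM. In RXR-deficient mAMs with replicate 4, *Krt79* had a mean of 229 CPM, with libraries from 116 to 402 CPM. The means of *Siglecf*, *Marco*, *Ear1*, *Ear2* and *Cidec* there were 215, 284, 669, 1882 and 282 CPM, also below control mAMs. Those of *Itgax*, *Chil3*, *Car4* and *Mrc1* were 1829, 19563, 383 and 2547 CPM, above control means of 1628, 16163, 331 and 2478 CPM. *Itgam*, which encodes CD11b, was at 170.3 CPM in ImmAMs against 3.63 CPM in control mAMs. Markers of interstitial macrophages (6 of 8 had a row) summed to 6.96 to 9.87 CPM in control mAMs, 12.3 to 19.9 CPM in RXR-deficient mAMs with replicate 4, and 296 to 322 CPM in ImmAMs. The part of such cells in the values below was not tested.

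In RXR-deficient mAMs 1 of the 10 genes, *Fabp4*, passed the test and fell, at a p-adj of 0.05 or less over all 12889 genes tested, where 4.84% of all genes passed (2.25% higher and 2.59% lower). In ImmAMs against control mAMs 7 of 10 passed, at a background of 48.1% (22.8% higher and 25.3% lower), with *Fabp1*, *Fabp4*, *Lpl*, *Acsl1* and *Acsl5* lower and *Fabp5* and *Acsl4* higher. In ImmAMs against RXR-deficient mAMs 7 of 10 passed as well, at a background of 37.9% (17.7% higher and 20.2% lower), with *Cd36* lower in place of *Acsl4* higher. The libraries of the 2 groups did not overlap for 7 of the 10 genes in ImmAMs against control mAMs and for 9 against RXR-deficient mAMs, as for 51.3% and 51.2% of all genes. All 10 genes passed the filter on low values. The median log2 fold change of the 10 was −0.13, −0.24 and −0.32 in the 3 comparisons, against −0.00, −0.00 and −0.01 over all genes tested. The comparisons share libraries, so their counts are not independent of each other.

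**Figure D1:**
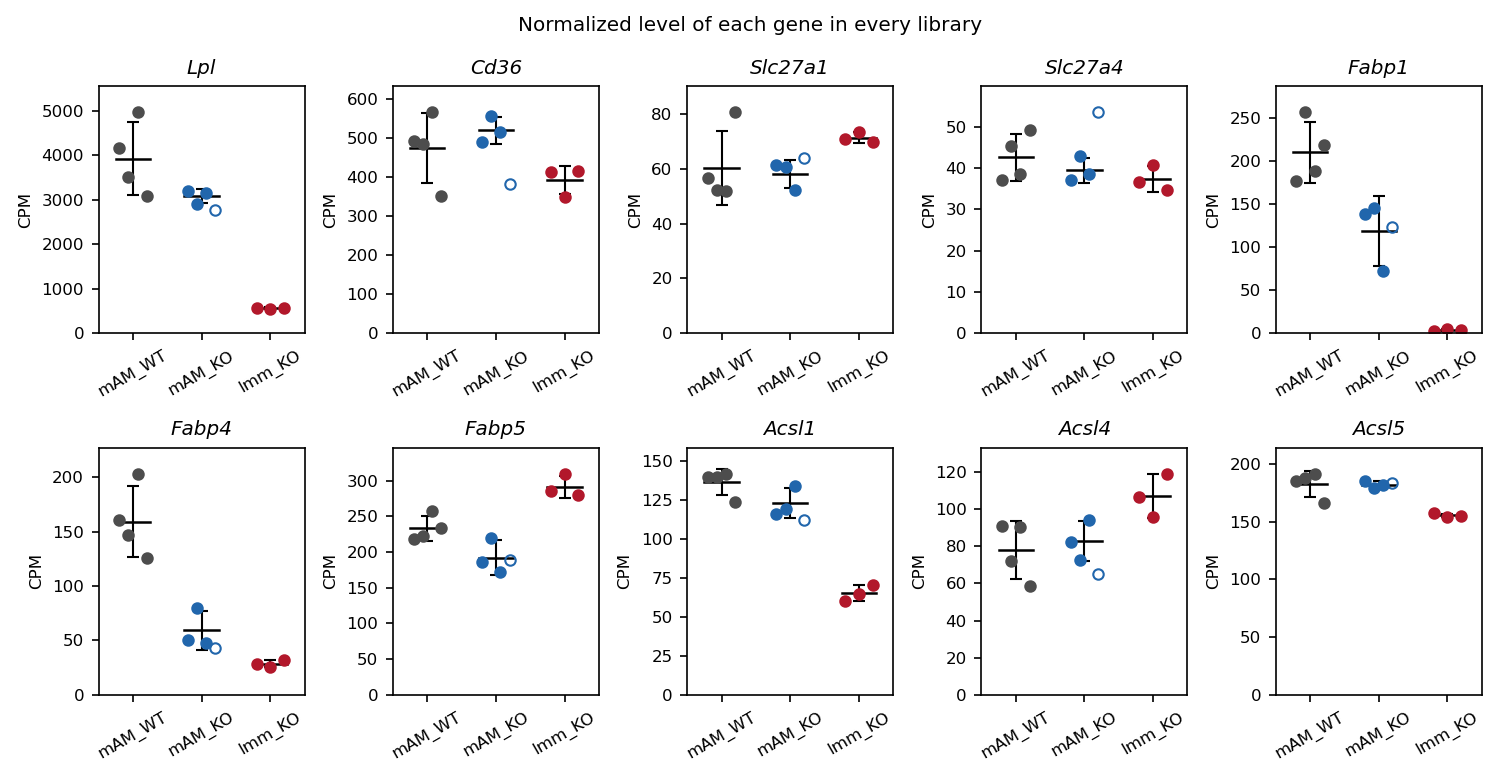
Level of each gene in CPM (linear axis from 0) in every library of control mAMs (mAM_WT), RXR-deficient mAMs (mAM_KO) and ImmAMs (Imm_KO). Points are libraries, the open point is mAM_KO replicate 4, and bars give the mean and SD without it. Lpl, Fabp1 and Acsl1 are low in all 3 ImmAM libraries, Fabp4 steps down from group to group, and the Slc27a4 libraries overlap throughout.

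**Figure D2:**
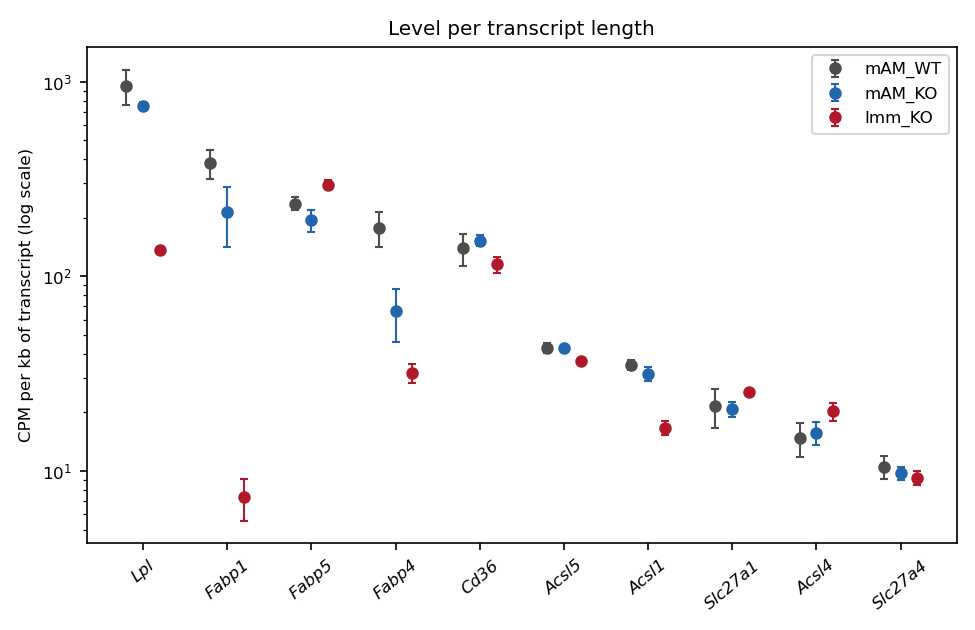
Mean level of each gene in CPM per kb of its longest coding transcript (log axis), with SD, in the 3 groups, ordered by the level in control mAMs. Lpl leads in both groups of mature AMs, and Fabp5 leads in ImmAMs, where Fabp1 is last.

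CPM grow with transcript length, so levels were compared between genes per kb of the longest coding transcript. In control mAMs *Lpl* was the highest of the 10, at 955 CPM per kb, followed by *Fabp1* at 380.1 and *Fabp5* at 236. No *Lpl* library lay as low as any *Fabp1* library, and no *Fabp1* library as low as any *Fabp5* library. *Fabp5*, *Fabp4* (178 CPM per kb) and *Cd36* (139) followed with overlapping neighbours, and then, apart from each other, *Acsl5* (43.0), *Acsl1* (35.0) and *Slc27a1* (21.6). *Acsl4* (14.8) and *Slc27a4* (10.5) closed the order and overlapped. In RXR-deficient mAMs *Lpl* stayed first, *Fabp1* (215) and *Fabp5* (195) overlapped, and *Cd36* (153) stood above *Fabp4* (66.0) without overlap. In ImmAMs *Fabp5* stood first, at 295 CPM per kb, above *Lpl* at 137, and *Fabp1* last, at 7.32, with libraries that overlapped those of *Slc27a4* (9.22).

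*Lpl* (chr8:68880491-68907448 on GRCm38, plus strand), which encodes the lipase, was at 4157, 3514, 4967 and 3079 CPM in the control mAM libraries and at 3194, 2919.9 and 3155 CPM in RXR-deficient mAMs, with 2782 CPM in replicate 4. The lowest control, mAM_WT replicate 4, lay within the range of the RXR-deficient mAMs. The log2 fold change was −0.32 (SE 0.128, 95% interval −0.60 to −0.05) and did not pass the test (limma p-adj = 0.148), although it did without mAM_WT replicate 4 (−0.43, p-adj = 0.0486) and by DESeq2 (p-adj = 0.0496). In ImmAMs the gene was at 577, 541 and 573 CPM. All 3 libraries lay far below every mature AM library, and *Lpl* was 6.86-fold lower than in control mAMs (log2 fold change −2.78 with SE 0.128, limma p-adj = 2.75e-09) and 5.48-fold lower than in RXR-deficient mAMs (−2.45, SE 0.137, limma p-adj = 2.95e-08). In bulk RNA, a smaller share of cells that express a gene and less of its RNA per cell cannot be told apart, and this holds for each level given here.

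The genes that control lipases were measured beside it, in a list of 16 that chaperone, anchor, activate or inhibit *Lpl* or encode related lipases, of which 9 had a row. In RXR-deficient mAMs 0 of these 9 passed limma, edgeR, DESeq2 or limma-voom. At an unadjusted p under 0.05 were 1 of the 9 and 3042 of all 12889 genes tested. In ImmAMs against control mAMs 5 of the 9 passed, 2 higher and 3 lower, with a list median of 0.01 on the log2 scale. This count and those of the lists that follow stand beside the 48.1% of all genes that passed in this comparison, 4.84% in RXR-deficient mAMs and 37.9% between ImmAMs and RXR-deficient mAMs. *Angptl4*, which encodes an inhibitor of the lipase and is itself a known PPAR target, fell in ImmAMs to a mean of 6.73 ± 1.21 CPM, where control mAMs had 146 ± 21.0 CPM (log2 fold change −4.44, limma p-adj = 8.06e-11), and its log2 fold change against RXR-deficient mAMs was −4.22. The lysosomal acid lipase gene *Lipa* was lower in ImmAMs at 799 ± 23.8 against 1126 ± 130.2 CPM (log2 fold change −0.49), and *Furin*, whose protease can cleave the lipase, was higher at 680.1 ± 49.0 against 517 ± 56.2 CPM (log2 fold change 0.40). *Apoc2*, at under 5 CPM in every group, also passed (log2 fold change 2.35). Against RXR-deficient mAMs 7 of the 9 passed, 3 higher and 4 lower, among them *Lmf1*, a chaperone needed for lipase folding, with a log2 fold change of 0.50 that lost its call in 2 of the 10 fits without 1 library (p-adj up to 0.0796). That count was 4 with the replicate block or without mAM_KO replicate 2 or ImmAM replicate 3, and 3 with a fold of at least 1.5 asked for.

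Of the 3 genes for uptake at the membrane only *Cd36* passed, in 1 comparison. *Cd36* (chr5:17781690-17888801, minus strand), the scavenger receptor for long-chain fatty acids and oxidized lipoproteins, was at 492, 485, 564 and 349.7 CPM in control mAMs, at 488, 556 and 514 CPM in RXR-deficient mAMs and 382 CPM in replicate 4, and at 412, 349 and 414 CPM in ImmAMs. The replicates numbered 4 were the lowest of both groups of mature AMs. Its log2 fold change was 0.15 in RXR-deficient mAMs (95% interval −0.13 to 0.44) and −0.25 in ImmAMs against control mAMs (−0.54 to 0.03, p-adj = 0.128), neither of which passed.

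Against RXR-deficient mAMs *Cd36* fell in ImmAMs, by 0.41 on the log2 scale (SE 0.139, limma p-adj = 0.0345), and this call was fragile. It was lost with mAM_KO replicate 4 included (p-adj = 0.140), and without mAM_KO replicate 2 or 3 or any 1 of the 3 ImmAM libraries (p-adj from 0.0530 to 0.132). Against control mAMs, the fall passed only when mAM_WT replicate 4 was left out (−0.39, p-adj = 0.00230).

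*Slc27a1* (chr8:71568882-71587302, plus strand), which encodes the transport protein FATP1, was at 56.5, 52.5, 51.8 and 80.6 CPM in control mAMs, 61.4, 60.5 and 52.3 CPM in RXR-deficient mAMs (64.0 CPM in replicate 4) and 70.9, 73.5 and 69.7 CPM in ImmAMs. Only mAM_WT replicate 4 among the mature AM libraries lay above the ImmAMs. The log2 fold change was −0.03 in RXR-deficient mAMs (95% interval −0.32 to 0.25), 0.27 in ImmAMs against control mAMs (−0.02 to 0.56, limma p-adj = 0.116) and 0.30 against RXR-deficient mAMs (−0.01 to 0.61, p-adj = 0.115). Without mAM_WT replicate 4 the last 2 passed (0.41 at p-adj = 0.00101 and 0.30 at p-adj = 0.00954), and the last also passed when only those 2 groups were fitted (p-adj = 0.0167). *Slc27a4* (chr2:29802634-29817522, plus strand), which encodes FATP4, did not pass in any of the 3 comparisons, nor in 13 other fits or 10 fits without 1 library. It was at 37.2 to 49.2 CPM in control mAMs, 37.0 to 42.8 CPM in RXR-deficient mAMs with 53.4 CPM in replicate 4, and 34.8 to 40.8 CPM in ImmAMs, with 95% intervals of the log2 fold change of −0.34 to 0.13, −0.42 to 0.06 and −0.33 to 0.18 in the 3 comparisons.

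Other receptors at the same surface did move. From a list of 12 further genes that handle fatty acids or the lipoproteins that carry them, 7 had a row. In RXR-deficient mAMs 2 of the 7 passed. *Msr1*, which encodes the class A scavenger receptor for modified lipoproteins, rose to 105 ± 41.0 CPM (SD, n = 3) where controls had 33.0 ± 9.87 CPM (SD, n = 4) (log2 fold change 1.66, limma p-adj = 0.00454), and *Scarb1*, the receptor for high-density lipoprotein, fell to 107 ± 12.3 CPM, below the 151 ± 8.22 CPM of controls (log2 fold change −0.50, limma p-adj = 0.00701). Both kept their call in each of 13 other fits and in each of 10 fits without 1 library, and *Scarb1* lay under a fold of 1.5. In ImmAMs 6 of the 7 passed against control mAMs, 4 higher and 2 lower, with *Msr1* at 409 ± 37.4 CPM (log2 fold change 3.68), the caveolin gene *Cav1* at 375 ± 26.5 against 66.2 ± 12.4 CPM (2.52) and *Scarb1* at 45.7 ± 2.06 CPM (−1.72). *Slc27a3* (1.60, limma p-adj = 0.0424) and *Got2* (−0.19, limma p-adj = 0.0402) also passed, both near the threshold. The 6 became 5 by edgeR, DESeq2 or limma-voom and 4 after quantile normalization or without the variance trend. It was 4 to 6 without 1 library. The list's median log2 fold change was 0.996 in ImmAMs against control mAMs, 1.44 against RXR-deficient mAMs, and −0.22 in RXR-deficient mAMs against controls. Against RXR-deficient mAMs 5 of the 7 passed, 4 higher and 1 lower, and *Slc27a3*, another member of the SLC27 family, was among them at 5.07 ± 0.313 against 2.02 ± 1.81 CPM (log2 fold change 1.90, limma p-adj = 0.0327), a call lost by edgeR and in 4 of the 10 fits without 1 library (p-adj up to 0.0805).

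Of the 3 binding proteins, *Fabp1* and *Fabp4* were lower and *Fabp5* higher in ImmAMs than in either group of mature AMs. In RXR-deficient mAMs against controls all 3 log2 fold changes were below 0, and only *Fabp4* passed. FABPs are small cytosolic proteins that each hold a fatty acid in a pocket and differ in where they are made, with *Fabp1* best known from liver and intestine, *Fabp4* from fat cells and macrophages and *Fabp5* from skin and macrophages. *Fabp4* (chr3:10204088-10208576, minus strand) was at 161, 147, 203 and 126 CPM in control mAMs, 50.2, 79.9 and 47.3 CPM in RXR-deficient mAMs and 28.3, 25.7 and 32.1 CPM in ImmAMs. The 3 groups did not overlap, and mAM_KO replicate 4, at 42.7 CPM, lay below the other RXR-deficient mAMs and above the ImmAMs. *Fabp4* was 2.73-fold lower in RXR-deficient mAMs than in controls (log2 fold change −1.45 with SE 0.182, limma p-adj = 0.00183) and kept this call in each of 13 other fits and in each of the 10 fits without 1 library, where its log2 fold change ran from −1.69 to −1.31. It fell again between RXR-deficient mAMs and ImmAMs (−1.01, SE 0.194, limma p-adj = 0.00122), to a level 5.48-fold lower than in control mAMs (−2.45, SE 0.182, limma p-adj = 1.93e-07).

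*Plin1*, which like *Fabp4* is a marker of fat cells and coats lipid droplets, was the only 1 of 5 fat cell markers with a row. It was at 9.21 to 14.8 CPM in control mAMs, 4.52 to 5.70 CPM in RXR-deficient mAMs with replicate 4, and 0.209 to 0.289 CPM in ImmAMs. Markers of endothelial cells, which also make *Fabp4* and *Cd36*, had a row for 0 of 10 genes.

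*Fabp1* (chr6:71199827-71205023, plus strand) was at 176, 256, 189 and 219 CPM in control mAMs and at 138, 146 and 72.4 CPM in RXR-deficient mAMs, with 123 CPM in replicate 4. No RXR-deficient library reached the lowest control. The log2 fold change of −0.87 (SE 0.232, 95% interval −1.38 to −0.37) was just outside the threshold (limma p-adj = 0.0506), and 5 of 13 other fits called it, edgeR, DESeq2 and limma-voom among them. It also passed without mAM_WT replicate 1 (p-adj = 0.0439), mAM_KO replicate 2 (0.0270) or ImmAM replicate 2 (0.0499), and over all alternatives p-adj ran from 0.0270 to 0.163. Without mAM_KO replicate 3, the lowest library, the log2 fold change was −0.55. The study, which also used limma at a p-adj of 0.05, named *Fabp1* among the genes downregulated in these cells, whereas the main fit here did not call it. In this comparison 2 of the 10 genes, *Fabp1* and *Fabp4*, had libraries that did not overlap between the groups, a property of 20.1% of all genes tested.

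In ImmAMs *Fabp1* was the lowest of the 10 genes per kb, at 2.95, 4.80 and 4.39 CPM, or 49, 103 and 83 reads. It was 52.5-fold lower than in control mAMs (log2 fold change −5.71 with SE 0.232, limma p-adj = 9.72e-10) and 28.6-fold lower than in RXR-deficient mAMs (−4.84, SE 0.248, limma p-adj = 1.38e-08), by far the widest difference of the 10 genes.

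Among the promoter windows of the 7 of the 10 genes that had one to search, only that of *Fabp1* held a DR1-like element. The stretch that holds it is shown for that reason. DR1, a direct repeat of AGGTCA with 1 base between the repeats, is the textbook site of RXR paired with a PPAR. RefSeq promoter windows that end shortly past a start (GRCm38.p6), were at hand for 7 of the 10 genes, those other than *Lpl*, *Fabp4* and *Fabp5*. The exact repeat, searched on both strands with any base as the spacer, was in none of their windows and in 0.0396% of 32851 windows of all genes. With 1 free base in each repeat (AGGNCA) there was 1 match, in *Fabp1*, against 0.381% of all windows. The strand of the gene is printed from chr6:71199629-71199826, up to the base before the annotated gene, with the match at 71199812 to 71199824 in capitals.
Fabp1 promoter: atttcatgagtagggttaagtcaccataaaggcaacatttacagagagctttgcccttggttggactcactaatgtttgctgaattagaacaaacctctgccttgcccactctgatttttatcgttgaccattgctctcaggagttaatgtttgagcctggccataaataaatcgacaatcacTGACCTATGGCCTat
Read on the opposite strand, the capitals are AGGCCATAGGTCA, which ends in a complete AGGTCA. That single hexamer, on either strand, was in 16.3% of all windows, and among the other 6 genes only a *Cd36* window held it. DR4 elements, the type bound by RXR with an LXR, searched as AGGTCA and AGGNCA repeats with 4 bases between, were found in none of the 7 genes' windows and in 0.0152% and 0.253% of all windows. These are matches of letters within short windows at the starts of genes, and sites elsewhere in or near the genes were not searched. The study also profiled RXR and PPARγ binding by ChIP, and it lists *Fabp1* among the genes it assumes RXRs control directly. It reports RXRα peaks at *Cd36* as well. Those data were not analysed here.

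*Fabp5* (chr3:10012548-10016607, plus strand) ran the other way in ImmAMs. It was at 218, 222, 258 and 234 CPM in control mAMs, 186, 219 and 171 CPM in RXR-deficient mAMs (189 CPM in replicate 4) and 285, 309 and 280.2 CPM in ImmAMs. Every ImmAM library lay above every mature AM library, and *Fabp5* was 1.25-fold higher than in control mAMs (log2 fold change 0.32 with SE 0.0881, limma p-adj = 0.00849) and 1.52-fold higher than in RXR-deficient mAMs (0.61, SE 0.0942, limma p-adj = 2.27e-04). Both calls held in 13 other fits and in 10 fits without 1 library, and the first was lost when a fold of at least 1.5 was asked for. In RXR-deficient mAMs against controls it had a log2 fold change of −0.28 (95% interval −0.47 to −0.09) that did not pass (p-adj = 0.0803), but did by DESeq2 and without mAM_KO replicate 2 (−0.38, p-adj = 0.0188). Of the 60-base windows of its coding transcript 16.4% also occur in 4 near-copies, none of which has a row, so part of its reads could be shared with them.

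*Fabp4* and *Fabp5* are neighbours. Both lie in the FABP cluster of chromosome 3, 187 kb apart and on opposite strands, and none of the 4 coding genes annotated between them had a row. The make-up of the 3 binding proteins within a library, per kb, does not depend on how libraries are scaled. *Fabp1* made up 47.8% ± 6.08 (SD, n = 4), *Fabp5* 29.8% ± 2.33 and *Fabp4* 22.4% ± 4.41 of the 3 in control mAMs. In RXR-deficient mAMs with replicate 4 the shares were 45.3% ± 6.09 (SD, n = 4), 41.7% ± 4.82 and 12.98% ± 2.54, and the *Fabp4* share lay below and the *Fabp5* share above that of control mAMs, both without overlap. In ImmAMs *Fabp5* alone made up 88.2% ± 1.40 (SD, n = 3), with 9.60% ± 1.38 for *Fabp4* and 2.18% ± 0.468 for *Fabp1*. The sum of the 3 went from 794 ± 59.4 CPM per kb in control mAMs to 472 ± 90.2 in RXR-deficient mAMs with replicate 4 and 335 ± 13.9 in ImmAMs. No 2 groups overlapped.

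**Figure D3:**
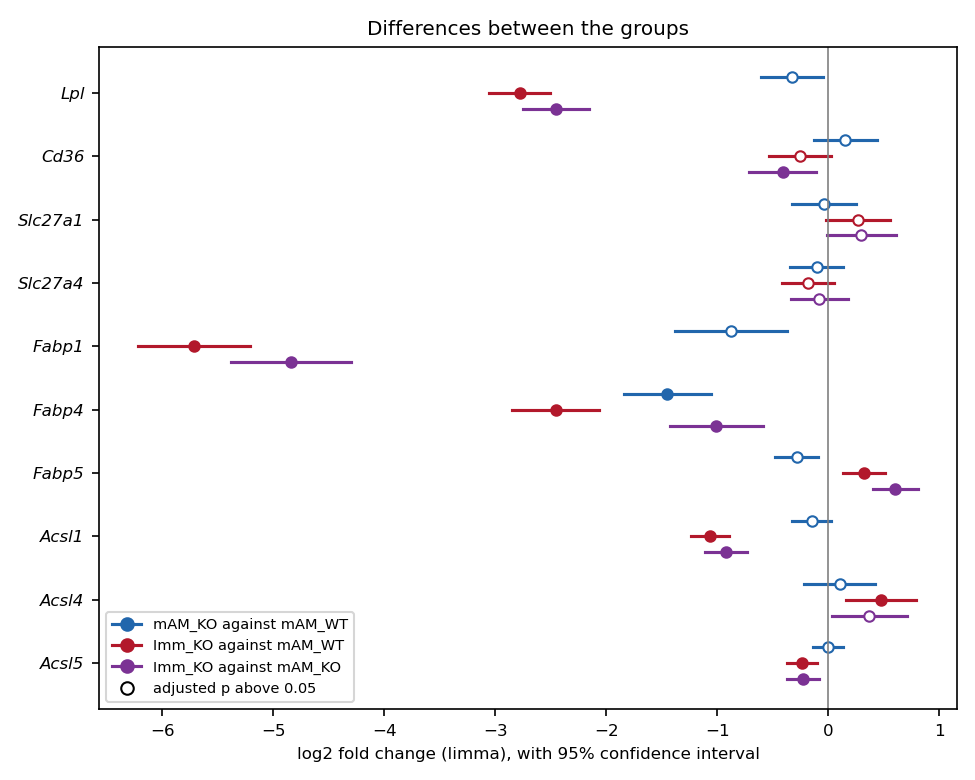
Log2 fold change of each gene in the 3 comparisons (limma, horizontal axis), with 95% confidence intervals as lines. Filled points have an adjusted p of 0.05 or less, and open points do not. Fabp4 is the only gene filled in mAM_KO against mAM_WT, where the intervals of Fabp1, Fabp5 and Lpl also lie left of 0. Fabp5 is filled on the right of 0 in both comparisons of ImmAMs.

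Among 18 other binding proteins for fatty acids, acyl-CoA and retinoids, 6 had a row. *Dbi*, the acyl-CoA binding protein, was lower in RXR-deficient mAMs, at 66.1 ± 6.49 against 85.6 ± 3.20 CPM (log2 fold change −0.38, limma p-adj = 0.0207). It stood at 95.4 CPM in mAM_KO replicate 4, above each control, and its call was lost with that library (p-adj = 0.347). It was kept in 9 of 13 other fits and in 7 of 10 fits without 1 library (p-adj up to 0.0936). In ImmAMs 3 of the 6 passed against control mAMs, each lower. They were *Dbi* at 45.5 ± 2.35 CPM (log2 fold change −0.91), the sterol carrier protein gene *Scp2* at 118 ± 3.39 against 251 ± 4.12 CPM (−1.08) and *Acbd5*, a peroxisomal acyl-CoA binding protein, at 94.4 ± 11.4 against 138 ± 30.2 CPM (−0.53). The same 3 were lower against RXR-deficient mAMs, with log2 fold changes of −0.54, −0.97 and −0.52, the last without a call when ImmAM replicate 3 was left out (p-adj = 0.0681), and *Acbd6*, of the same family as *Acbd5*, was higher at 0.37.

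None of the 3 synthetases passed the test in RXR-deficient mAMs, and in ImmAMs their values went both ways. *Acsl1* (chr8:46471037-46536051, plus strand), the main form in fat and heart and known to be induced by PPARs, was at 140.0, 139.7, 142 and 124 CPM in control mAMs, 116, 119 and 134 CPM in RXR-deficient mAMs (112 CPM in replicate 4) and 60.3, 64.6 and 70.6 CPM in ImmAMs. The ImmAM libraries lay well below all others. *Acsl1* was 2.09-fold lower there than in control mAMs (log2 fold change −1.07 with SE 0.0802, limma p-adj = 2.24e-07) and 1.89-fold lower than in RXR-deficient mAMs (−0.92, SE 0.0857, limma p-adj = 2.92e-06), calls that held in each alternative. Between the mature AMs the log2 fold change was −0.15 (95% interval −0.32 to 0.03, limma p-adj = 0.287).

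*Acsl4* (chrX:142317993-142390535, minus strand) prefers arachidonic acid and is known for its part in ferroptosis, a form of cell death by lipid peroxidation. It was at 90.8, 72.1, 90.2 and 58.6 CPM in control mAMs, 82.3, 72.4 and 94.1 CPM in RXR-deficient mAMs with 65.3 CPM in replicate 4, and 106, 95.6 and 119 CPM in ImmAMs. The ImmAMs lay above all mature AMs, and the rise against control mAMs passed (1.39-fold, log2 fold change 0.48 with SE 0.146, limma p-adj = 0.0168) but did not without ImmAM replicate 4 (p-adj = 0.0792). Against RXR-deficient mAMs the log2 fold change of 0.37 (95% interval 0.03 to 0.71) did not pass (limma p-adj = 0.0798), and it did with mAM_KO replicate 4 included (p-adj = 0.0339), with only those 2 groups fitted (0.0219), by DESeq2 (0.0395) and without mAM_WT replicate 4 (0.0248). In RXR-deficient mAMs against controls its log2 fold change was 0.10 (95% interval −0.21 to 0.42).

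*Acsl5* (chr19:55251938-55297720, plus strand), a synthetase of mitochondria and endoplasmic reticulum, varied least of the 10 genes over the 11 libraries. It was at 185, 188, 191 and 166 CPM in control mAMs, 185, 179 and 182 CPM in RXR-deficient mAMs with 184 CPM in replicate 4, and 157, 154 and 155 CPM in ImmAMs. The log2 fold change between the mature AMs was −0.00 (95% interval −0.14 to 0.13). In ImmAMs it was lower by 0.23 on the log2 scale in both comparisons, at limma p-adj = 0.00810 against control mAMs and 0.0163 against RXR-deficient mAMs. Both calls were lost with quantile normalization (p-adj = 0.0650 and 0.0535), and the second also without mAM_KO replicate 1 (0.0537) or ImmAM replicate 3 (0.0522). The gene *Zdhhc6* on the other strand shares 404 exonic bases with *Acsl5* and was at 41.4 ± 4.21, 44.6 ± 4.14 (replicate 4 included) and 33.9 ± 4.37 CPM, and *Acsl1* shares 1039 bases with an antisense gene that has no row. The libraries were made with a directional kit, and whether the counting used strand is not given in the sources used here.

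Within a library, *Acsl1* made up 37.8% ± 0.898 (SD, n = 4) of the 3 synthetases per kb in control mAMs, 34.8% ± 1.24 (SD, n = 4) in RXR-deficient mAMs with replicate 4 and 22.7% ± 1.23 (SD, n = 3) in ImmAMs, with no overlap between the groups. *Acsl4* went from 15.8% ± 2.07 and 16.7% ± 1.81 in the mature AMs to 27.5% ± 1.85 in ImmAMs. *Acsl5* held 46.4% ± 1.2, 48.5% ± 2.57 and 49.8% ± 2.14.

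Of 14 other acyl-CoA synthetases 5 had a row, and all 5 passed in ImmAMs against control mAMs, 2 higher and 3 lower. *Acss1*, which activates acetate in mitochondria, was at 54.0 ± 3.32 against 161 ± 7.42 CPM (log2 fold change −1.58, limma p-adj = 3.78e-09). *Acsf2*, a mitochondrial synthetase for medium-chain fatty acids, was at 21.2 ± 2.26 against 37.0 ± 2.17 CPM (−0.81). *Acsl3*, the long-chain form of lipid droplets, was higher from a low level, at 5.35 ± 1.31 against 1.64 ± 0.376 CPM (1.70, limma p-adj = 2.55e-04). The other 2 were *Acss2* (0.68) and *Acsf3* (−0.78). Against RXR-deficient mAMs 4 of the 5 passed, 2 in each direction, with log2 fold changes of −1.55 for *Acss1*, 1.51 for *Acsl3* and 1.04 for *Acss2*, the cytosolic acetate form. In RXR-deficient mAMs only *Acsf3*, a mitochondrial synthetase for malonate, passed, at 10.9 ± 1.27 against 16.3 ± 1.74 CPM (−0.58, limma p-adj = 0.0479), and just 2 of the 10 fits without 1 library kept that call (p-adj up to 0.170).

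The thioesterases undo activation by removing coenzyme A, and 10 of the 14 listed genes for acyl-CoA hydrolysis had a row. In RXR-deficient mAMs 1 of the 10 passed. *Acot1*, a cytosolic thioesterase for long-chain acyl-CoA and a known PPAR target, rose to 70.1 ± 12.98 CPM, where controls had 45.3 ± 3.77 CPM (log2 fold change 0.62, limma p-adj = 0.0128). It kept the call in each fit without 1 library and lost it without the variance trend (p-adj = 0.0601). In ImmAMs against control mAMs *Acot1* was higher (log2 fold change 0.35) and 3 of the 10 were lower, with *Acot7* at 4.39 ± 1.80 against 14.2 ± 0.446 CPM (log2 fold change −1.78), *Acot4* at 3.27 ± 0.245 against 9.88 ± 1.31 CPM (−1.59) and *Acot11* at 11.8 ± 1.10 against 22.1 ± 2.62 CPM (−0.89). These 3 were also lower than in RXR-deficient mAMs, with log2 fold changes of −1.09, −1.57 and −0.64, and so was *Acot9* (−0.46).

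**Figure D4:**
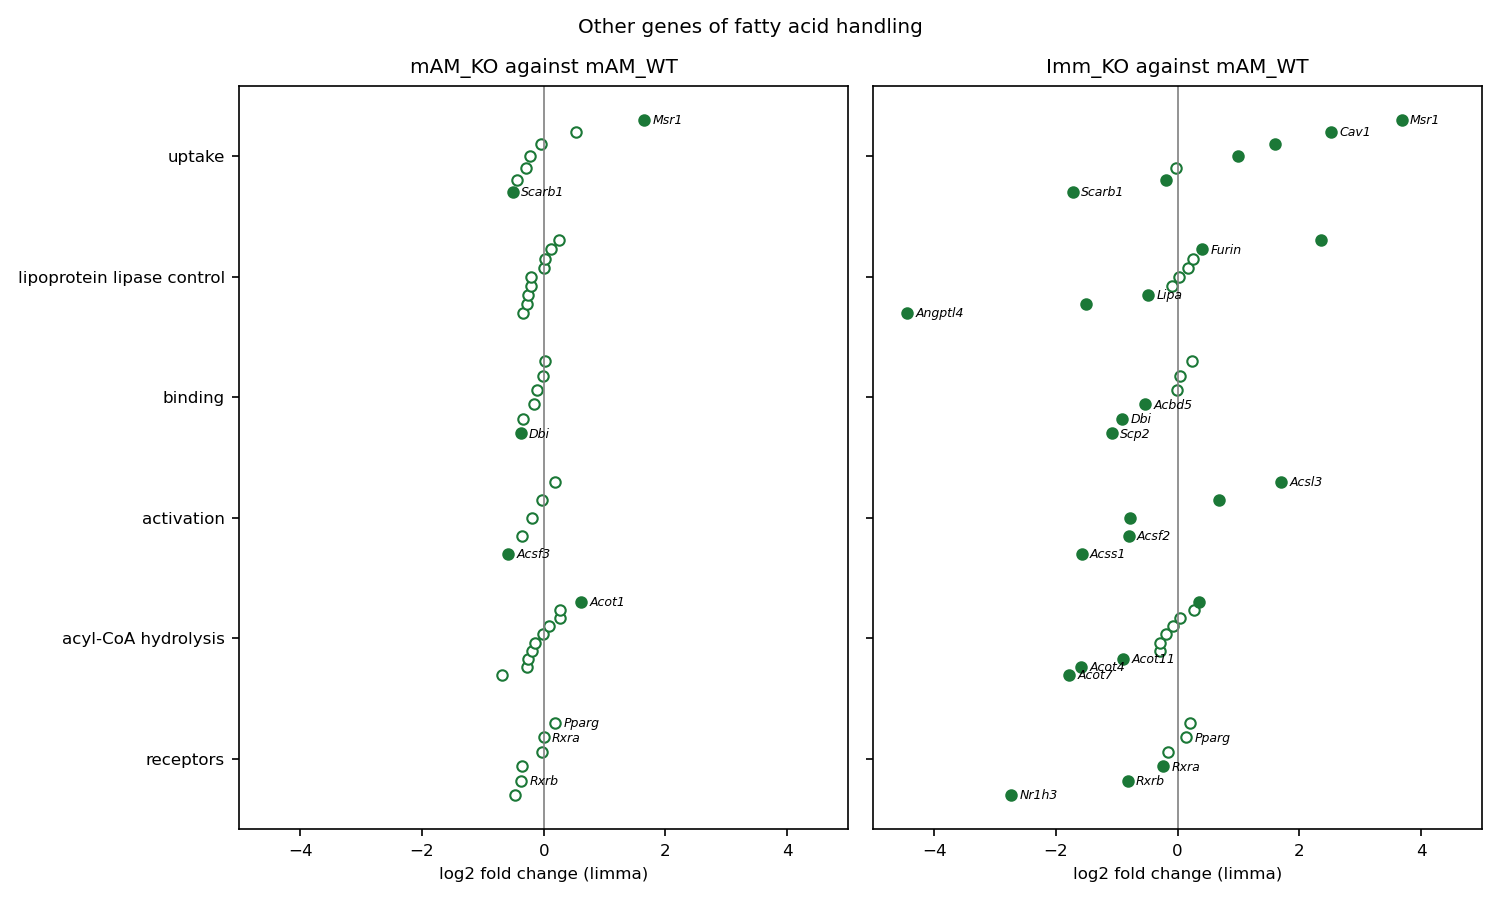
Log2 fold change (limma, horizontal axis) of the other measured genes of fatty acid handling, by list, in RXR-deficient mAMs (left) and in ImmAMs (right) against control mAMs. Filled points have an adjusted p of 0.05 or less, open points do not, and names mark some of the genes given in the text. In RXR-deficient mAMs 5 points of the first 5 lists are filled, and in ImmAMs 23 are, to both sides of 0.

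Of the nuclear receptors listed as known to act on these genes, 6 of 8 had a row. *Pparg*, the PPAR that mature AMs depend on, was at 198 ± 18.7 CPM (SD, n = 4) in control mAMs, 225 ± 6.99 CPM (SD, n = 3) in RXR-deficient mAMs and 218 ± 2.10 CPM (SD, n = 3) in ImmAMs and did not pass in any of the 3 comparisons (limma p-adj = 0.135, 0.129 and 0.650), while in ImmAMs against control mAMs it did after quantile normalization and without mAM_WT replicate 3. *Nr1h3*, which encodes LXRα, was lower in ImmAMs, at 5.89 ± 0.943 against 39.1 ± 4.09 CPM in control mAMs (log2 fold change −2.74, limma p-adj = 2.00e-08) and 28.7 ± 6.14 CPM in RXR-deficient mAMs (−2.27). In RXR-deficient mAMs 0 of the 6 passed limma, edgeR or limma-voom, 3 passed DESeq2 and 4 were at an unadjusted p under 0.05. Of all 12889 genes tested in this comparison, 1352 passed DESeq2 and 3042 were at an unadjusted p under 0.05 by limma. In ImmAMs *Rxra* and *Rxrb* were lower as well, at log2 fold changes of −0.24 and −0.82 against control mAMs and −0.24 and −0.45 against RXR-deficient mAMs. The *Rxra* call was kept in 8 of 10 fits without 1 library in the first comparison and 6 of 10 in the second, and was lost in both after quantile normalization. The *Rxrb* call was kept in all 10 and in 8 of 10.

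Each gene was last set beside the 9958 other genes at a mean of 5 CPM or more, by the root mean square difference of log2 levels over the 11 libraries after each gene was centred on its own mean. This is a description over libraries that share their groups. *Fabp1* lay nearest to *Cpne5* (difference 0.175, while *Fabp1* itself varied by 2.41) and to the peroxisomal thiolase gene *Acaa1b* (0.215), which went from means of 278 and 279.7 CPM in control mAMs to 6.10 and 6.40 CPM in ImmAMs. *Acsl1* lay nearest to *Acadl*, the long-chain acyl-CoA dehydrogenase of mitochondrial oxidation (0.0724, with 0.450 for its own variation), and to the cholesterol ester hydrolase gene *Nceh1* (0.0895). *Lpl* had *Slc9a2* (0.124) and *Nabp1* (0.161) as its neighbours and *Fabp4* had *Cald1* (0.281) and *Rhoc* (0.325), each at a difference small beside its own variation of 1.18 and 1.03.

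*Fabp5* lay nearest to *Wdr4* (0.115), against a variation of its own of 0.262. *Acsl4* lay nearest to the integrin gene *Itgav* (0.0813) and *Rapgef6* (0.0844), *Cd36* to *Ptbp3* (0.0742) and *Ppp4r3b* (0.0754), and *Acsl5* to *Gspt1* (0.0318) and *Mrpl45* (0.0384). *Slc27a1* had *Kmt5c* (0.0720) and *Brf1* (0.0757), and *Slc27a4* had *Mon1a* (0.0616) and *Zdhhc7* (0.0618). None of the 10 genes had another of the 10 among its 2 nearest.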

How the data were processed

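RNA of sorted AMs was sequenced as 11 libraries, grouped by the genotype and cell type in the labels. Per the study's methods and the submitters' processing notes, the authors trimmed reads with Cutadapt, estimated counts per gene with RSEM 1.3.1 on GRCm38, applied TMM normalization in limma and dropped genes that reached 1 CPM in fewer than 3 samples. The deposited values are CPM, reads per gene scaled to TMM-adjusted library size, with 0.5 read added to each count. Whole reads could be recovered for 100.0% of values (within 0.01), and gave 16659960 to 37873532 reads per library. The members and gene lists were chosen with earlier results of these data known.

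From these, genes that reached 1 CPM in 3 or more libraries of the 10 compared (mAM_KO replicate 4 was set aside, as in the study) were fitted on log2 CPM with limma 3.58.1 in R 4.3.3 (3 groups, variance trend, Benjamini-Hochberg adjustment over 12889 genes, 2-sided). No pseudocount was added beyond the deposited 0.5 read, so fold changes of low genes are slightly understated. The alternatives included all 11 libraries, other scalings and filters, a pseudocount of 1 CPM, edgeR 4.0.16 and DESeq2 1.42.0 on the recovered reads, limma-voom, a replicate block, and fits without 1 library. The edgeR test called 566 genes in mAM_KO against mAM_WT, 6094 in Imm_KO against mAM_WT and 4804 in Imm_KO against mAM_KO. The fits were tested on simulated data.

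Named were the 10 members, from each list the up to 3 called genes with the largest log2 fold changes at a mean of 5 CPM or more in the higher group, *Rxra*, *Rxrb* and *Pparg*, and the 2 genes nearest in pattern to each member. Some genes these rules select are not reported here. *Apoc2*, *Got2*, *Acbd6*, *Acot9* and repeats of other list genes were added after their values were seen. Positions and transcript lengths are from the GENCODE annotation of GRCm38, and promoter windows from RefSeq on GRCm38.p6.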

Additional observations from a re-analysis of the deposited data

Results flagged for a closer look

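In control mAMs 2 of the 10 genes had 1 library far from the other 3, by a gap to the nearest library over the group's range above Dixon's limit for 4 samples. *Slc27a1* was at 80.6 CPM in mAM_WT replicate 4 against 51.8 to 56.5 CPM in the others (0.835 of the range). *Acsl1* was at 124 CPM in the same library against 139.7 to 142 CPM (0.890 of the range). Both groups of 4 were tested for each gene, 20 in all, of which chance flags about 1 in 20. The fits without this library are given beside each gene where they changed a call, and for *Acsl1* they changed none.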

How the results depend on the processing

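In mAM_KO against mAM_WT 1 of the 10 genes passed. The count was 2 with a pseudocount of 1 CPM, a filter at 5 CPM, edgeR or limma-voom (*Fabp1* and *Fabp4*), 4 with DESeq2 (with *Fabp5* and *Lpl*), and 1 to 3 without 1 library. In Imm_KO against mAM_WT the 7 became 4 when a fold of at least 1.5 was asked for (*Fabp1*, *Fabp4*, *Lpl* and *Acsl1*) and 6 to 9 without 1 library, and in Imm_KO against mAM_KO the 7 became 5 to 9. Signs turned only in mAM_KO against mAM_WT and only for genes near 0 that passed in neither fit. *Slc27a1* went from −0.03 on the log2 scale to 0.00225 with all 11 libraries, 0.11 without mAM_WT replicate 4 and 0.04 without mAM_KO replicate 3, *Slc27a4* from −0.10 to 0.00693 with all 11 libraries, and *Acsl4* from 0.10 to −0.025 without mAM_WT replicate 4, with a range of −0.025 to 0.198 over the fits without 1 library. *Acsl5*, at −0.00, was at 0.000295 with all 11 libraries, 0.00284 on library totals, 0.0246 after quantile normalization, and 0.00469, 0.0101, 0.0194 and 0.00874 without mAM_WT replicate 1, 2 or 3 or mAM_KO replicate 2, the lowest being −0.0483 without mAM_WT replicate 4. The causes were not tested.

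Over all genes, the 624 calls of mAM_KO against mAM_WT became 337 with all 11 libraries, 199 with only these groups fitted, 122 without the variance trend, 1352 with DESeq2, 315 with a fold of at least 1.5, and 162 to 861 without 1 library. A fold of 1.5 left 3438 of 6194 calls in Imm_KO against mAM_WT and 2800 of 4891 in Imm_KO against mAM_KO. With 3 or 4 libraries a group, the 95% intervals given in the text bound what could be seen.

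The replicate numbers were not treated as pairs in the main fit. Deviations of same-numbered mAM_WT and mAM_KO libraries correlated at 0.136, −0.127, 0.0969 and 0.261. For mAM_KO and Imm_KO, which share the genotype, the correlations were 0.0533, −0.0652 and −0.0419 at numbers 2, 3 and 4. With the replicate block the calls over all genes were 174, 5686 and 3894 in the 3 comparisons, *Slc27a1* was at 0.036 in mAM_KO against mAM_WT, and in Imm_KO against mAM_KO *Cd36* (p-adj = 0.126) and *Acsl5* (0.108) did not pass.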

Other observations

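Markers of other cell types were summed per library over those with a row, and mAM_KO replicate 4 is included in this paragraph. Monocyte markers (6 of 8) summed to 1489 to 2163 CPM in control mAMs, 1412 to 2002 CPM in RXR-deficient mAMs and 6774 to 7428 CPM in ImmAMs. Most of each sum was *Fn1*, with means of 1755, 1622 and 6789 CPM, and *Ccr2* was at 11.4, 15.5 and 83.0 CPM. In ImmAMs dendritic cell markers (2 of 6) summed to 20.7 to 24.1 CPM, against 5.40 to 7.24 in control and 5.45 to 8.12 in RXR-deficient mAMs. Neutrophil markers (5 of 7) were at 30.7 to 39.5, 24.6 to 40.6 and, in ImmAMs, 51.7 to 61.9 CPM, and club and ciliated cell markers (2 of 5, nearly all *Tppp3*) at 109.6 to 176, 150.3 to 232 and 258 to 266 CPM. These 4 sums were higher in every ImmAM library than in any mature AM library. Type 2 cell markers (2 of 9) reached at most 19.1 CPM in a library, erythroid markers (3 of 5) 9.55 CPM, the eosinophil marker (1 of 5) 7.34 CPM and the lymphocyte marker (1 of 8) 1.60 CPM. Fibroblast markers had a row for 0 of 6 genes. The part of other cells in the levels of the 10 genes was not tested.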
